A study of Mus musculus with 24 samples.

Results

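The genes described here are the TRIM family of tripartite motif proteins in mouse bone marrow-derived macrophages. GENCODE M21 holds 68 protein-coding genes with a TRIM symbol and a number, of which 67 are in the count files, and 42 of these reached at least 10 counts in 3 or more of the 24 libraries. The rule used the level of a gene and no comparison of groups, but a gene can reach it through the groups where it is high. Trim6, Trim29 and Trim46 had such counts only in libraries with LPS, with or without IFNg, at 18 h, and Trim30c in those, in the 1 h libraries with LPS and IFNg and in 1 IL-4 library, so increases of these 4 in those groups are not independent of the rule. Just inside it stood Trim29 and Trim46, each with 3 such libraries, and just outside it Trim17 and Trim66, each with 2. The other 25 genes in the files were below the rule, among them the muscle ring finger genes Trim54, Trim55 and Trim63, and Trim54 and Trim60 had 0 counts in every library. By the same rule 11325 protein-coding genes passed in the whole series of 43629 gene identifiers.

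All libraries came from wild type C57BL/6 mice, as macrophages grown from bone marrow for 7 days in CSF-1 at 20 ng/mL, which was also present during stimulation. The 8 groups of 3 libraries were cells given lipopolysaccharide (LPS) together with 50 ng/mL interferon gamma (IFNg), LPS alone, interleukin 4 (IL-4) at 20 ng/mL, or no stimulus, each for 18 h or for 1 h. LPS was at 20 or 100 ng/mL, and which dose applied to which library is not stated in the labels. Differences between LPS with IFNg and LPS alone therefore cannot be told apart from a difference in LPS dose. The labels do not say whether the 3 libraries of a group were from different mice or dishes. The p-values rest on the spread between libraries of the same group, estimated jointly over the 8 groups. That spread can be technical variation.

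TRIM proteins carry a RING domain, 1 or more B-boxes and a coiled coil, and most act as ubiquitin ligases. Many are induced by interferon, and several adjust the signals that follow detection of microbes by Toll-like receptors, RIG-I-like receptors or cGAS and STING. Others bind retroviral capsids, regulate transcription or act at centrosomes and membranes. LPS is the ligand of Toll-like receptor 4 in macrophages, whose TRIF branch induces interferon beta. IL-4 signals through STAT6.

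Values below are CPM, read counts scaled to library depth with TMM factors. Fold changes are on the log2 scale with their standard errors, stimulus over unstimulated cells at the same time, from edgeR's quasi-likelihood test fitted over all genes. A gene was called higher or lower at a Benjamini-Hochberg adjusted p below 0.05, over 12765 genes tested, of which 41 were members. Trim46 was too low to be tested. Library totals ran from 4181890 to 8122945 counts. All 8 macrophage markers had counts in every library, with minima from 13.7 CPM for Mertk to 4867 CPM for Lyz2, and the T cell marker Cd3e had 0 counts in all. At 18 h 4 of the 8 were called higher and 3 lower with LPS and IFNg (median log2 fold change 0.25), 7 higher with LPS (1.22) and 4 lower with IL-4 (−0.50), and their part in the results was not tested. Of the LPS libraries at 18 h, replicate 2 stood apart, with a median absolute log2 deviation from its group of 0.229, against 0.133 and 0.162 for the other two, and unstimulated replicate 3 at 18 h had the most genes detected, 19108.

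Promoter windows of the family were searched for the letters of the interferon-stimulated response element, a site bound by IRF factors. The element was searched as GAAA, any 2 bases and GAAA again, on either strand, in RefSeq windows of 300 bases on GRCm38.p6, 250 before a start and 50 after it, where 32 of the 42 members had a window. A match was found in 10 of the 44 windows of these genes, against 3.44% of all 32851 windows of the same length. By gene, 9 of the 32 had a match, 6 of the 10 genes of a cluster on chromosome 7, Trim12a, Trim12c, Trim30a, Trim30d, Trim34a and Trim5, and Trim2, Trim21 and Trim26 elsewhere. The sequences of 6 genes are shown, 5 of the cluster, among them related genes with the same letters, and Trim21, since the cluster and Trim21 rose with LPS at 18 h as described next. Each runs 5′ to 3′ on the gene's strand for 130 bases, from 100 before to 30 after the RefSeq start, with the matched letters in capitals. On the reverse strand the letters read TTTC, any 2 bases and TTTC.
Trim30a (chr7:104465164-104465293, minus strand): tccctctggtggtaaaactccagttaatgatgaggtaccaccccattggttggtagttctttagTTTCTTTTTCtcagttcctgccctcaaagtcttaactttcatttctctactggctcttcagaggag
Trim30d (chr7:104507820-104507949, minus strand): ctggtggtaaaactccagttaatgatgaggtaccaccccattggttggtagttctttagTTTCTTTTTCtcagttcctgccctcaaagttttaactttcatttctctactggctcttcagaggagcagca
Trim12c (chr7:104353320-104353449, minus strand): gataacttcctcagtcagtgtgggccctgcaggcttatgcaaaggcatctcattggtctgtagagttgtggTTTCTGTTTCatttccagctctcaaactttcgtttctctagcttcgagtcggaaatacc
Trim5 (chr7:104288077-104288206, minus strand): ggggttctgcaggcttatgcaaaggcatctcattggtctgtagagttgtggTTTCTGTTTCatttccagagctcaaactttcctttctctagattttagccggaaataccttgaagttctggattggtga
Trim34a (chr7:104244357-104244486, plus strand): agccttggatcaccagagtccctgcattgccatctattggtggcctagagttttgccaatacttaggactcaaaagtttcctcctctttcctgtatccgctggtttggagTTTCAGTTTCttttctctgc
Trim21 (chr7:102565453-102565582, minus strand): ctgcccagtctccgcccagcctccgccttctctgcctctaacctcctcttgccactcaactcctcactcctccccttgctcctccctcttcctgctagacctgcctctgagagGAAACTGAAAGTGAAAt
Trim30a and Trim30d shared an identical run of 89 bases that holds the match, and Trim12c and Trim5 shared 63 bases that hold theirs. In Trim21 the capitals cover 2 overlapping matches. A form of the NF-kB site, GGG, any 2 bases and TTTCC, was in 1.63% of all windows and in 0 of the members'. Such matches describe letters and do not show that a factor bound there.

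A group of 10 members lies side by side on chromosome 7 (GRCm38, 104218793 to 104507849), in the order Trim6, Trim34a, Trim5, Trim12a, Trim34b, Trim12c, Trim30b, Trim30c, Trim30a and Trim30d. This is the mouse counterpart of the primate TRIM5, TRIM6, TRIM22 and TRIM34 locus, known for TRIM5, which binds incoming retroviral capsids in primates. No other protein-coding gene lies inside the 289 kb, and the 11 protein-coding genes within 100 kb on either side, among them olfactory receptors, had at most 1 count in any library.

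At 18 h all 10 cluster genes were called higher with LPS and IFNg and all 10 with LPS, with median log2 fold changes of 3.01 and 2.14. Trim6 and Trim30c are members through these groups, and the other 8 were each called higher in both comparisons. The summed level of the cluster was 1985 ± 58.8 CPM with LPS and IFNg, 1127 ± 75.7 CPM with LPS and 90.9 ± 11.8 CPM with IL-4, against 161 ± 11.4 CPM in unstimulated cells (SD, n = 3 each). No library of either LPS group overlapped with an unstimulated one. Over all genes tested, 36.1% were called higher with LPS and IFNg and 31.8% with LPS. In bulk RNA, fewer cells of a type and less RNA per cell cannot be told apart.

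Trim30a, which in mouse limits NF-kB signalling by promoting loss of TAB2 and TAB3, was the most abundant member of the cluster. It had 945, 948 and 998 CPM with LPS and IFNg and 587, 529.7 and 595 CPM with LPS at 18 h, against 74.2, 71.4 and 74.6 CPM in unstimulated cells. Its log2 fold changes were 3.71 ± 0.12 (edgeR adjusted p = 6.96e-22) and 2.96 ± 0.12 (edgeR adjusted p = 1.96e-19). Both stimulated groups lay far above the unstimulated libraries, and the group with IFNg lay above LPS alone in every library.

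Trim30c, a close relative of Trim30a, was close to 0 without stimulus and had the third highest mean level of the cluster with LPS and IFNg. It had 225, 232 and 248 CPM with LPS and IFNg at 18 h and 47.8, 40.2 and 53.9 CPM with LPS, against 0.508, 0 and 0.784 CPM in unstimulated cells. The log2 fold changes were 9.05 ± 0.24 and 6.74 ± 0.29, the largest of all members in both comparisons. With so few counts in unstimulated cells the size of these folds is less certain than their direction.

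Trim30b had 134, 140.2 and 141 CPM with LPS and IFNg and 67.2, 72.5 and 62.2 CPM with LPS, against 2.03, 1.64 and 1.41 CPM in unstimulated cells at 18 h, log2 fold changes of 6.34 ± 0.16 and 5.30 ± 0.17. Trim30d had 329, 316 and 326 CPM with LPS and IFNg and 219, 171 and 234 CPM with LPS, against 21.2, 19.1 and 24.8 CPM, log2 fold changes of 3.90 ± 0.13 and 3.26 ± 0.13. For the 4 Trim30 genes, libraries with LPS, with or without IFNg, did not overlap with unstimulated ones at 18 h. This was common among the tested members, and the share over all genes was not computed. Absence of overlap is therefore given as a description, here and below.

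Fold changes were smaller in the relatives of primate TRIM5 and in the Trim34 genes, whose human counterpart works with TRIM5. Trim12c, which in mouse promotes interferon and NF-kB signalling together with TRAF6, had 90.8, 85.3 and 103 CPM with LPS and IFNg and 69.5, 57.5 and 66.8 CPM with LPS, against 20.7, 21.3 and 27.7 CPM in unstimulated cells. Trim12a changed by 2.70 ± 0.12 and 2.03 ± 0.12 on the log2 scale and Trim5 by 1.68 ± 0.19 and 1.36 ± 0.20. Trim34a had 114, 112 and 111 CPM with LPS and IFNg and 96.5, 87.3 and 93.8 CPM with LPS, against 17.3, 20.7 and 20.8 CPM in unstimulated cells, and Trim34b changed by 2.63 and 1.94 on the log2 scale. Trim6, which in human cells builds free ubiquitin chains that activate IKK epsilon, was low throughout, with 6.37, 4.55 and 3.60 CPM with LPS and IFNg, 2.13, 1.46 and 2.46 CPM with LPS and 0.169, 0.298 and 0.940 CPM in unstimulated cells.

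Several of these genes share sequence, so that their reads can be assigned to either copy. Of the distinct 50-base stretches of their transcripts, 56.8% of Trim34b, 39.8% of Trim34a, 36.3% of Trim5, 33.0% of Trim12c and 10.4% of Trim12a also occur in another gene, mostly in each other, and their separate values are uncertain to that extent. The share was 7.49% for Trim30d, 5.98% for Trim30a, 0.66% for Trim30c and 0.55% for Trim30b.

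**Figure D1:**
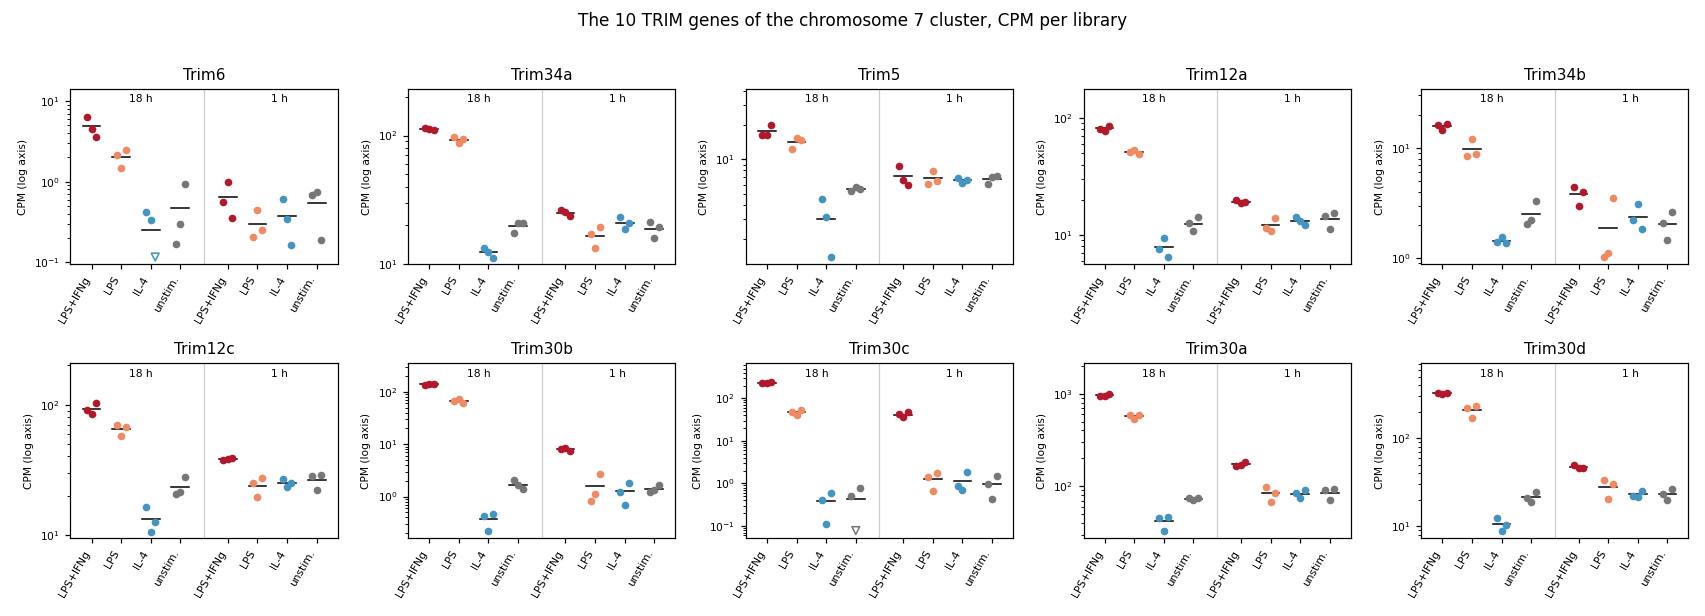
CPM on a log axis in every library for the 10 TRIM genes of the chromosome 7 cluster, in map order, with 18 h left and 1 h right in each panel. Dots are libraries, black lines are means of 3, and open triangles mark libraries with 0 counts. At 18 h all libraries with LPS, with or without IFNg, lie above those without stimulus. At 1 h the same is seen with LPS and IFNg for Trim12a, Trim12c, Trim34a, Trim34b and the 4 Trim30 genes.

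IL-4 moved the cluster the other way. At 18 h 7 of the 10 fell with IL-4 (Trim12a, Trim12c, Trim30a, Trim30b, Trim30d, Trim34a and Trim5) and the median log2 fold change was −0.81, where 20.1% of all tested genes were called lower. Trim30a had 45.9, 32.6 and 46.9 CPM with IL-4 against 74.2, 71.4 and 74.6 CPM in unstimulated cells (log2 −0.82 ± 0.12, edgeR adjusted p = 3.44e-06). Trim30d had 12.4, 8.80 and 10.4 CPM with IL-4 against 21.2, 19.1 and 24.8 CPM (log2 −1.05 ± 0.17), and Trim30b had 0.417, 0.223 and 0.458 CPM against 2.03, 1.64 and 1.41 CPM (log2 −2.19 ± 0.44). These libraries did not overlap between groups. Trim30b was close to 0 with IL-4, so the size of its fold is less certain than its direction. Without replicate 3 of both groups Trim12a and Trim5 no longer passed (edgeR adjusted p = 0.0556 and 0.0902), at −0.44 and −0.55 on the log2 scale. At 1 h none of the 10 was called with IL-4 in edgeR, in DESeq2 or at an unadjusted p below 0.05, and the median was −0.03.

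At 1 h cluster genes were called with LPS and IFNg and not with LPS alone. With LPS and IFNg 8 of the 10 rose at 1 h, with a median log2 fold change of 0.73, where 14.7% of all tested genes were called higher. Trim5 and Trim6 were not called. Trim30c, which reached the rule's counts partly in these libraries, was among the 8. With LPS alone 0 of 10 were called in either direction by edgeR, by DESeq2 or at an unadjusted p below 0.05, with a median of −0.08. The summed cluster level at 1 h was 363 ± 13.1 CPM with LPS and IFNg, 176 ± 28.6 CPM with LPS and 177 ± 12.7 CPM with IL-4, against 179 ± 23.8 CPM in unstimulated cells (SD, n = 3 each). The direct comparison of LPS with IFNg against LPS alone called 8 of 10 higher at 1 h, where 6.52% of all genes were. At 18 h it called 9 of 10 higher, where 24% of all genes were. The medians were 0.88 and 0.68. The LPS dose of these groups is not stated, so added IFNg and dose cannot be told apart here.

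Trim30c showed the widest gap at 1 h, with 42.2, 35.5 and 47.4 CPM with LPS and IFNg, 1.42, 0.674 and 1.75 CPM with LPS and 0.968, 0.441 and 1.502 CPM in unstimulated cells. Its log2 fold change was 5.46 ± 0.26 against unstimulated cells and 5.01 ± 0.27 against LPS alone (edgeR adjusted p = 3.69e-15). Trim30a had 164, 168 and 184 CPM with LPS and IFNg and 98.5, 68.0 and 85.1 CPM with LPS, against 91.6, 71.6 and 92.6 CPM in unstimulated cells (log2 1.01 ± 0.11 for LPS with IFNg). Trim30b rose by 2.49 and Trim30d by 1.04 on the log2 scale with LPS and IFNg, and the other 4 called genes by 0.42 to 0.91. The calls at 1 h of Trim12a, Trim12c, Trim34a and Trim34b were lost when libraries were scaled by total count alone, with values from 0.16 to 0.65.

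Among the whole family, 22 members were called higher and 9 lower with LPS and IFNg at 18 h, where 36.1% of all tested genes were called in each direction. With LPS 20 were higher and 10 lower, against 31.8% and 31.3% of all genes. The median log2 fold change of the 41 tested members was 0.44 and 0.41, and −0.0046 and 0.0060 over all genes. Outside the cluster 12 of 31 rose and 9 fell with LPS and IFNg, and 10 rose and 10 fell with LPS, shares near those of all genes. The 2 comparisons share their unstimulated libraries. Trim6, Trim29 and Trim30c reached the rule's counts mainly or only in groups given LPS. Counts of higher members and medians that include them are therefore not independent of the rule. With scaling by library size alone the median of all genes moved to −0.54 with LPS and IFNg and −0.41 with LPS at 18 h, and to −0.25 and −0.19 at 1 h.

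Markers of other cell types were also measured. Summed T cell, B cell and muscle markers reached at most 0.189, 3.23 and 0.417 CPM in any library, and 5 fibroblast markers reached 7.19 CPM with LPS at 18 h. Summed over 4 dendritic cell markers, the level at 18 h was 12.3 to 16.5 CPM with LPS and IFNg and 3.38 to 5.84 CPM with LPS, against 1.35 to 2.39 CPM in unstimulated cells. Summed over 5 neutrophil markers, it was 24.1 to 45.6 CPM with LPS and IFNg and 87.3 to 141 CPM with LPS, against 65.2 to 110 CPM in unstimulated cells, mostly S100a8 and S100a9, and Ly6g had at most 3 counts. Their part in the results was not tested.

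**Figure D2:**
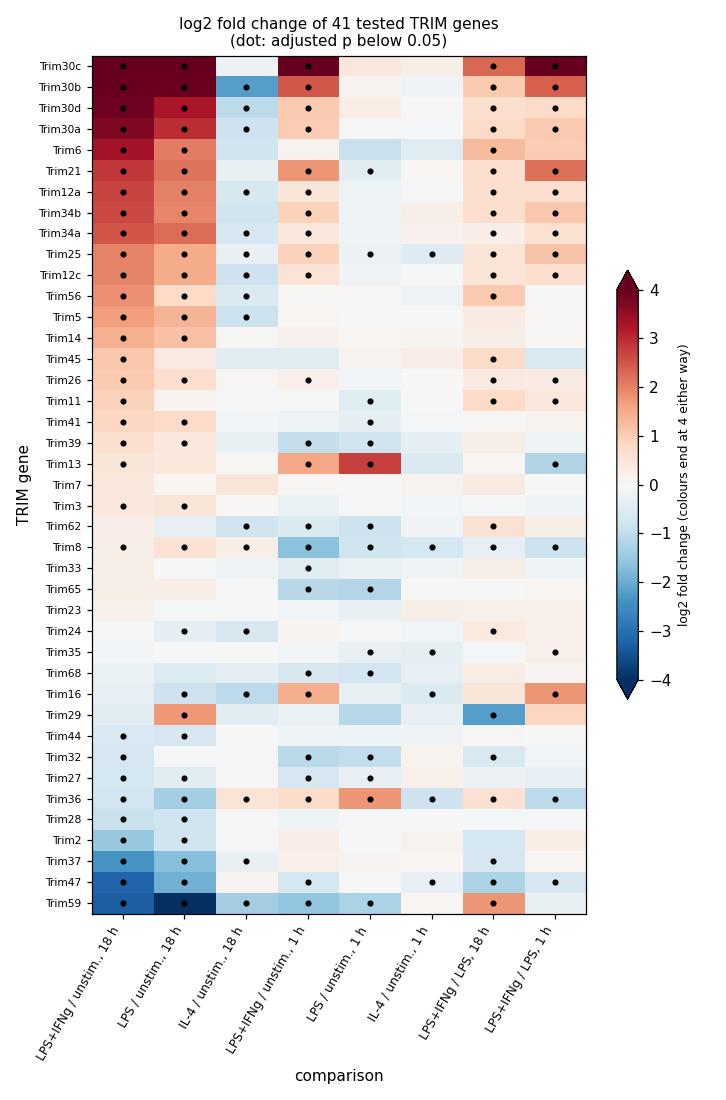
Log2 fold changes of the 41 tested TRIM genes (rows, sorted by the change with LPS and IFNg at 18 h) in 8 comparisons (columns), with a dot where the edgeR adjusted p was below 0.05. Trim30c and Trim30b lie at the top with 9.05 and 6.34, beyond the colour scale, which ends at 4 either way, and Trim47 and Trim59 lie at the bottom with −3.20 and −3.30.

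Among 11 tested members known as regulators of innate sensing, 7 rose and 2 fell with LPS and IFNg at 18 h and 6 rose and 1 fell with LPS, with median log2 fold changes of 0.49 and 0.57. Over all tested genes 36.1% were called in each direction with LPS and IFNg, and 31.8% higher and 31.3% lower with LPS. This list was chosen with earlier results of these data known, so its counts are a description. Trim25, the ligase that attaches ubiquitin chains to RIG-I, had the highest level per kilobase of exon as a mean over the 8 groups, 78.5 CPM per kb, followed by Trim30a with 63.0 CPM per kb. The order differed between groups: with LPS and IFNg at 18 h Trim30a had 234 and Trim25 162 CPM per kb, and in unstimulated cells at 18 h Trim28 had 44.8 and Trim25 40.5 CPM per kb. Trim25 had 948, 941 and 904 CPM with LPS and IFNg and 686, 601 and 649 CPM with LPS at 18 h, against 225, 218 and 255 CPM in unstimulated cells (log2 2.00 ± 0.08 and 1.47 ± 0.08). At 1 h it had 666, 676 and 713 CPM with LPS and IFNg and 304, 287 and 345 CPM with LPS, against 378, 319.9 and 395 CPM in unstimulated cells. The log2 fold change was 0.91 ± 0.08 with LPS and IFNg, and with LPS it was −0.22 ± 0.08, with overlapping libraries and a call that was lost in DESeq2. IL-4 libraries were lower than unstimulated ones at both times, by 0.29 and 0.52 on the log2 scale at 18 h and 1 h, though the call at 18 h was lost without unstimulated replicate 3 (−0.22, edgeR adjusted p = 0.053). Trim25 and Trim30a together made up 45.4% of all member CPM with LPS and IFNg at 18 h, against 20.5% in unstimulated cells.

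Trim21, a cytosolic antibody receptor and ubiquitin ligase encoded outside the cluster on chromosome 7, also rose with both LPS stimuli. It had 147, 137 and 152 CPM with LPS and IFNg and 96.2, 84.2 and 92.5 CPM with LPS at 18 h, against 19.8, 20.3 and 21 CPM in unstimulated cells (log2 2.83 ± 0.10 and 2.16 ± 0.11). At 1 h it had 60.6, 57.8 and 55.5 CPM with LPS and IFNg, 15.5, 11.7 and 9.76 CPM with LPS and 20.3, 15.9 and 14.1 CPM in unstimulated cells. The early change was 1.77 ± 0.11 with LPS and IFNg (edgeR adjusted p = 7.64e-14) and −0.44 ± 0.15 with LPS alone (edgeR adjusted p = 0.0285), where the libraries overlapped and the call was lost without LPS replicate 2 or 3 or unstimulated replicate 1 (−0.28 to −0.40). LPS with IFNg exceeded LPS by 2.22 ± 0.13 at 1 h and 0.68 ± 0.09 at 18 h.

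Trim56, a regulator of cGAS and STING signalling, had 156, 143 and 181 CPM with LPS and IFNg, 88.9, 59.4 and 85.1 CPM with LPS and 37.3, 24.8 and 29.2 CPM with IL-4 at 18 h, against 41.3, 45.9 and 48.4 CPM in unstimulated cells. The log2 fold changes were 1.82, 0.79 and −0.58, all called, and it was not called with any of the 3 stimuli at 1 h. Trim14, an adaptor at MAVS that lacks a RING domain, rose by 1.42 ± 0.11 and 1.19 ± 0.12 at 18 h, to 70.3, 70.2 and 66.7 CPM with LPS and IFNg and 61.5, 50.9 and 63.9 CPM with LPS, against 27.6, 25.8 and 24.3 CPM. Its exons overlap those of Nans on the opposite strand, and Nans fell in both comparisons (log2 −1.66 and −0.56). Trim26, which in mouse marks IRF3 for degradation, rose by 1.03 ± 0.07 and 0.68 ± 0.08.

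Of the 16 members with a RefSeq window that were called higher with LPS at 18 h, 8 held the interferon element's letters. Of the 8 called lower 1 did, Trim2, and of the 7 not called 0 did. The 8 higher members with a match include the 6 of the cluster. Among those, Trim30a and Trim30d, and also Trim12a, Trim12c and Trim5, share identical runs that hold the letters, so they are not separate instances. Matches by call were not counted over all genes. Trim30b, Trim30c, Trim34b and Trim6 rose and had no match in their windows, which says only that these letters are not there.

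Trim3 rose by 0.43 and 0.49 at 18 h and Trim39 by 0.65 and 0.41, though with scaling by library size alone Trim3 was at −0.10 with LPS and IFNg and Trim39 at −0.01 with LPS. Among the other increases at 18 h, Trim45 reached 5.43, 5.69 and 6.44 CPM with LPS and IFNg, against 3.22, 2.09 and 2.98 CPM in unstimulated cells (log2 1.08 ± 0.25), and was not called with LPS (log2 0.33). Trim11 likewise had 46.1, 42.1 and 47.7 CPM with LPS and IFNg, 24.5, 29.6 and 24.6 CPM with LPS and 24.4, 22.5 and 24.5 CPM without stimulus. Trim41 rose by 0.81 and 0.77. It overlaps Rack1 on the opposite strand, and Rack1 fell by 1.75 and 0.79. Trim29, a regulator of NEMO in alveolar macrophages, was at its highest with LPS at 18 h. It had 3.38, 2.29 and 3.40 CPM with LPS, against 0.169, 1.04 and 1.41 CPM in unstimulated cells (log2 1.75 ± 0.46), and 1.40, 0.190 and 0.189 CPM with LPS and IFNg, a change of −2.21 ± 0.51 against LPS. The 3 libraries that made it a member are those with LPS at 18 h, so its values are given as a description.

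At 18 h 9 of the 41 tested members fell with LPS and IFNg and 10 with LPS. Over all tested genes 36.1% and 31.3% were called lower, larger shares than in the family. Trim59, a membrane-anchored ligase that in human cells limits NF-kB and IRF signalling, fell most with LPS. It had 3.11, 4.17 and 3.98 CPM with LPS and IFNg, 1.07, 1.25 and 0.946 CPM with LPS and 13.9, 15.6 and 12.1 CPM with IL-4 at 18 h, against 34.7, 40.4 and 34.6 CPM in unstimulated cells. The log2 fold changes were −3.30 ± 0.18, −5.05 ± 0.24 and −1.39 ± 0.14 (edgeR adjusted p = 7.19e-16, 2.23e-17 and 2.24e-09). Here LPS with IFNg exceeded LPS alone, by 1.76 ± 0.38. At 1 h Trim59 had already fallen with LPS and IFNg (−1.57) and LPS (−1.26), and was not called with IL-4 (0.06).

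Trim47 had 7.61, 4.93 and 5.68 CPM with LPS and IFNg and 15.5, 17.3 and 11.9 CPM with LPS at 18 h, against 53.0, 57.1 and 59.9 CPM in unstimulated cells (log2 −3.20 ± 0.14 and −1.93 ± 0.13). LPS with IFNg was lower than LPS alone at both times, with log2 fold changes of −1.27 at 18 h and −0.67 at 1 h. Exons of Trim47 and Trim65 overlap on the same strand. Trim37, which restrains centriole assembly, had 8.07, 6.26 and 7.01 CPM with LPS and IFNg and 11.4, 9.80 and 13.0 CPM with LPS, against 38.9, 40.7 and 32.6 CPM in unstimulated cells (log2 −2.38 ± 0.14 and −1.71 ± 0.13). It was not called in any stimulus comparison at 1 h.

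Trim28, the corepressor recruited by KRAB zinc finger proteins, fell by 0.89 with LPS and IFNg and by 0.80 with LPS on the log2 scale, to 103, 108 and 90.5 CPM with LPS and IFNg and 105, 114 and 102 CPM with LPS, against 185, 195 and 179 CPM. Of the other PHD and bromodomain members, Trim24 had log2 fold changes of 0.03 (not called) and −0.37 (called with overlapping libraries, and lost without LPS replicate 1 or 2 or unstimulated replicate 1 or 2, at −0.23 to −0.37), and Trim33 was not called in either. Trim2, a ligase best known in neurons, fell by 1.52 and 0.81, Trim27 by 0.71 and 0.46, and Trim44 by 0.60 and 0.66. Trim32 fell with LPS and IFNg (−0.66) and was not called with LPS (−0.06).

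At 1 h calls in the family differed in number between stimuli. LPS with IFNg gave 14 members higher and 10 lower, where 14.7% of all tested genes were called in each direction. LPS alone gave 2 higher and 13 lower, where 10.8% and 11.4% of all genes were. IL-4 gave 0 higher by edgeR or DESeq2, 1 at an unadjusted p below 0.05, and 6 lower, where 3.22% and 3.27% of all genes were. The member medians were 0.04, −0.16 and −0.04. Trim30c, higher with LPS and IFNg, reached the rule's counts partly in those libraries. In the direct comparison of LPS with IFNg against LPS alone, 14 members were higher and 4 lower at 1 h, where 6.52% and 5.25% of all genes were. At 18 h 19 were higher and 5 lower, where 24% and 23.4% of all genes were. With the replicate number as a block, Trim27 was also called lower in the comparison at 1 h (log2 −0.32, edgeR adjusted p = 0.041).

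**Figure D3:**
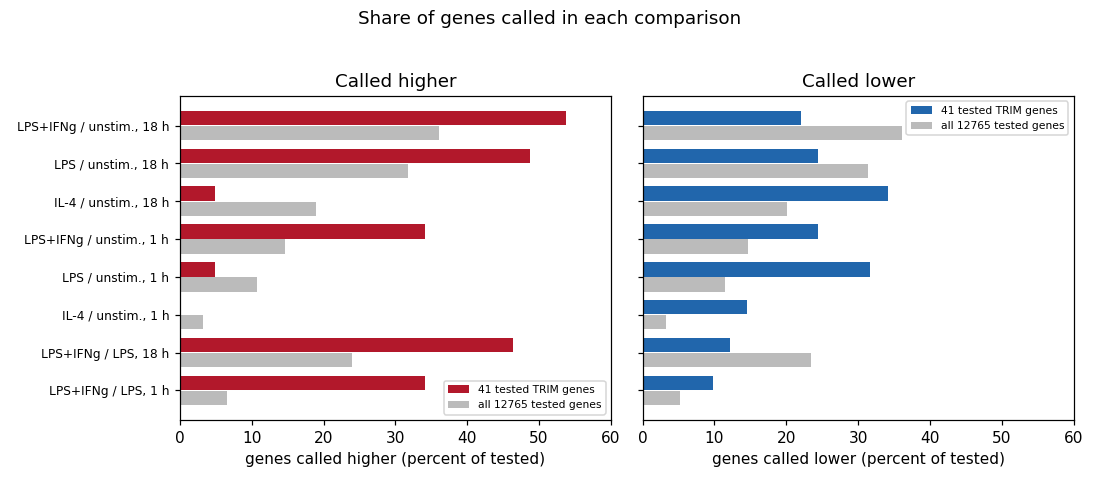
Share of the 41 tested TRIM genes (coloured) and of all 12765 tested genes (grey) called higher (left) or lower (right) in 8 comparisons, in percent. With LPS and IFNg over LPS at 1 h, 34.1% of TRIM genes were higher against 6.52% of all genes, and with LPS at 1 h 31.7% were lower against 11.4%.

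The 2 members that rose with LPS alone at 1 h were Trim13 and Trim36. Trim13, an endoplasmic reticulum membrane ligase that dampens MDA5 signalling, had 21.7, 20.5 and 27.1 CPM with LPS and IFNg and 57.0, 46.0 and 56.3 CPM with LPS at 1 h, against 8.99, 6.61 and 8.26 CPM in unstimulated cells (log2 1.54 ± 0.16 and 2.74 ± 0.14, edgeR adjusted p = 2.31e-09 and 8.07e-16). LPS with IFNg was lower than LPS alone at 1 h, with a log2 fold change of −1.20 ± 0.13. At 18 h it had 7.14, 8.16 and 7.39 CPM with LPS and IFNg and 5.69, 8.76 and 7.38 CPM with LPS, against 5.42, 6.41 and 4.23 CPM in unstimulated cells, a call of higher with LPS and IFNg (log2 0.49, but −0.05 with scaling by library size alone) and no call with LPS (0.42). Of its 50-base stretches 14.2% also occur in Gm9359.

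Trim36, a microtubule-associated ligase, had 24.3, 20.9 and 21.4 CPM with LPS and IFNg, 45.0, 44.5 and 48.3 CPM with LPS and 8.27, 6.90 and 7.47 CPM with IL-4 at 1 h, against 12.2, 14.4 and 13.7 CPM in unstimulated cells. It rose by 0.73 ± 0.12 and 1.77 ± 0.12 with the LPS stimuli and fell with IL-4 (−0.81 ± 0.14). At 18 h each of these signs was turned, with 6.68, 5.31 and 5.68 CPM with LPS and IFNg, 5.15, 2.502 and 3.78 CPM with LPS and 14.9, 14.4 and 14.2 CPM with IL-4, against 10.5, 8.95 and 10.7 CPM in unstimulated cells. The log2 fold changes at 18 h were −0.75 ± 0.16, −1.36 ± 0.18 and 0.53 ± 0.13, all called, and the stimulated libraries did not overlap with the unstimulated ones at either time.

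Trim16, which helps direct autophagy to damaged membranes and lacks a RING domain, was called higher in 1 of the 6 comparisons with unstimulated cells. It had 31.9, 27.9 and 30.2 CPM with LPS and IFNg, 7.33, 7.19 and 12.3 CPM with LPS and 7.16, 8.28 and 6.30 CPM with IL-4 at 1 h, against 12.7, 10.1 and 9.57 CPM in unstimulated cells. The change with LPS and IFNg was 1.46 ± 0.15 against unstimulated cells and 1.77 ± 0.17 against LPS alone (edgeR adjusted p = 2.76e-09 and 1.17e-09). Exons of Trim16 and Fbxw10 overlap on the same strand. At 18 h Trim16 was lower with LPS (−0.82) and with IL-4 (−1.06).

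The largest fall with LPS and IFNg at 1 h was in Trim8, which in mouse and human cells tunes TNF, interleukin 1 and Toll-like receptor signalling. With LPS alone and with IL-4 other members fell more. It had 35.4, 37.3 and 40.2 CPM with LPS and IFNg, 69.8, 60.9 and 70.6 CPM with LPS and 71.4, 68.1 and 75.5 CPM with IL-4 at 1 h, against 118, 111 and 123 CPM in unstimulated cells. The log2 fold changes were −1.64 ± 0.08, −0.81 ± 0.08 and −0.71 ± 0.07 (edgeR adjusted p = 7.79e-17, 6.49e-10 and 1.42e-08), and the libraries of each stimulus lay below the unstimulated ones. At 18 h it was called higher with LPS and IFNg (0.25, but −0.29 with scaling by library size alone), with LPS (0.57) and with IL-4 (0.23). Trim65, a ligase for MDA5, fell with LPS and IFNg and with LPS at 1 h (−1.09 and −1.16), with 7.23, 7.37 and 8.44 CPM with LPS and IFNg and 7.12, 6.96 and 8.01 CPM with LPS, against 17.0, 16.5 and 15.8 CPM in unstimulated cells. Trim32, a ligase for STING, fell in the same comparisons (−1.08 and −0.98), as did Trim27, Trim39, Trim59, Trim62 and Trim68. The calls of Trim68 (−0.63 and −0.75) were lost in DESeq2 and with most single libraries left out. With LPS alone Trim11 (−0.48), Trim35 (−0.31) and Trim41 (−0.35) were also lower at 1 h, and with LPS and IFNg Trim33 (−0.43) and Trim47 (−0.69). Trim26 was called higher with LPS and IFNg at 1 h (0.21, but −0.05 with scaling by library size alone).

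**Figure D4:**
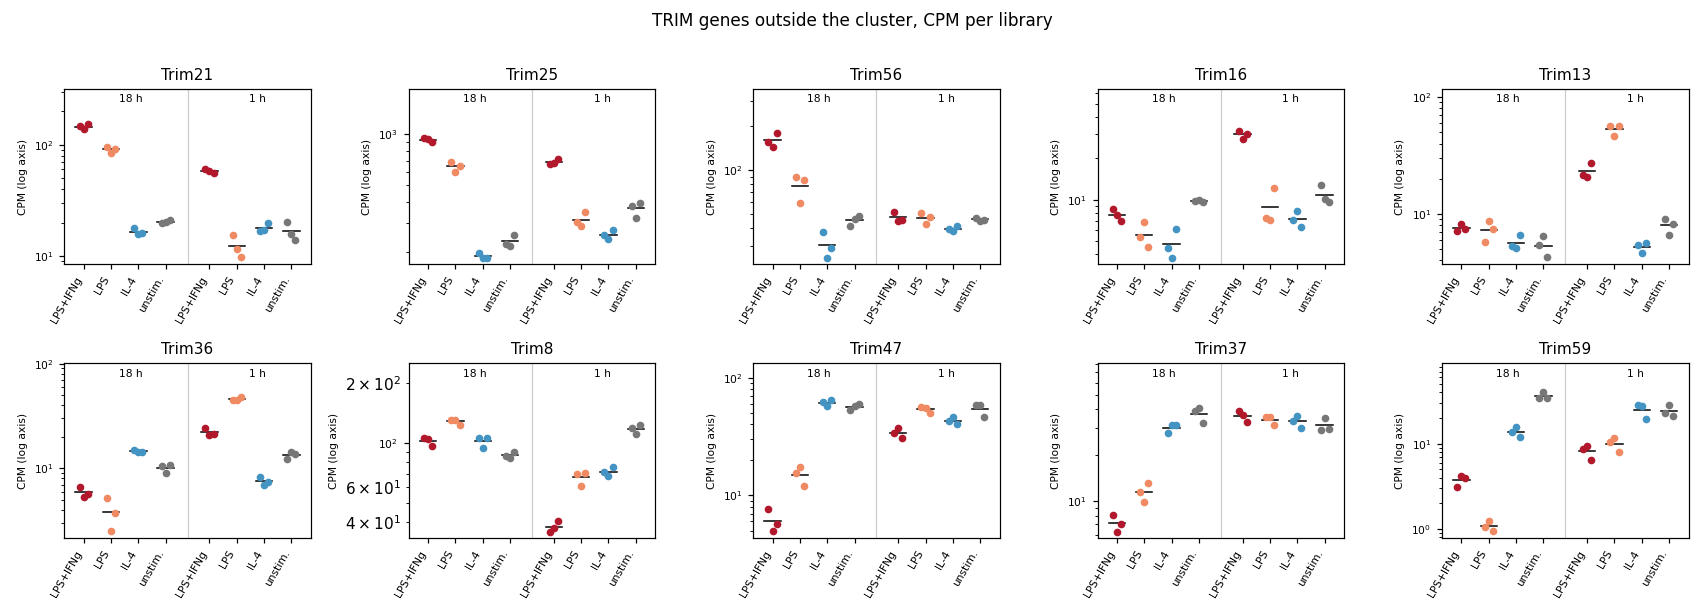
CPM on a log axis in every library for 10 TRIM genes outside the chromosome 7 cluster, laid out as 18 h left and 1 h right, with dots for libraries and black lines for means of 3. Trim21 and Trim25 were high with LPS and IFNg at both times, Trim13 and Trim36 were highest with LPS at 1 h, and Trim47, Trim37 and Trim59 were low at 18 h with LPS, with or without IFNg.

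Outside the cluster IL-4 at 18 h called 2 members higher, Trim36 and Trim8 (the call of Trim8 was lost without unstimulated replicate 2, at 0.21), and 7 lower, and over the family 2 and 14, where 19% and 20.1% of all tested genes were called higher and lower. Next to Trim59, Trim16 changed by −1.06 ± 0.19, Trim62 by −0.81 ± 0.19, Trim24 by −0.63 ± 0.16, Trim56 by −0.58 ± 0.13, Trim37 by −0.30 ± 0.11 and Trim25 by −0.29 ± 0.08. At 1 h the 6 called lower with IL-4 were Trim8, Trim36, Trim25, Trim16, Trim35 and Trim47, and the calls of Trim16 and Trim47 were lost without single libraries of either group (−0.45 to −0.64 and −0.29 to −0.34).

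Time alone moved few members. Unstimulated cells at 18 h had 3 members higher (Trim28, Trim59 and Trim65) and 3 lower (Trim25, Trim36 and Trim8) than at 1 h, where 4% and 8.01% of all tested genes were called. The largest were Trim25, with 225, 218 and 255 CPM at 18 h against 378, 319.9 and 395 CPM at 1 h (−0.65 ± 0.08), and Trim59, with 34.7, 40.4 and 34.6 CPM at 18 h against 23.2, 28.1 and 21.03 CPM at 1 h (0.60 ± 0.13). None of the cluster genes was called by edgeR, by DESeq2 or at an unadjusted p below 0.05.

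The response at 18 h differed from that at 1 h, tested as an interaction, for 33 members with LPS and IFNg (24 more positive at 18 h and 9 more negative), where 31.8% and 32.2% of all genes were called so. With LPS it differed for 31 members, 24 and 7, where 27% and 27.2% of all genes were. With IL-4 it differed for 11 members, 4 and 7, where 10.1% and 11.4% of all genes were. With scaling by library size alone these were 3 and 11 members for IL-4, and 984 and 1770 of all 12765 genes. All 10 cluster genes were among those more positive at 18 h with LPS and IFNg and with LPS, and 6 were among those more negative with IL-4. Of the members more positive with LPS, Trim6, Trim29 and Trim30c reached the rule's counts mainly or only in groups given LPS.

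Trim7 and Trim23, which carries an ARF-like GTPase domain, were called in none of the 6 comparisons with unstimulated cells. Trim35, which limits IRF7 in mouse, was the third highest member by the mean of CPM per kb over the 8 groups and had 164, 159.5 and 148 CPM with LPS and IFNg, 161, 163 and 162 CPM with LPS and 171, 169 and 165 CPM with IL-4 at 18 h, against 169, 171 and 172 CPM in unstimulated cells. Its log2 fold changes at 18 h were −0.12, −0.07 and −0.02, and with scaling by library size alone it was called lower with LPS and IFNg and with LPS (−0.65 and −0.50). At 1 h it was called lower with LPS (−0.31) and with IL-4 (−0.36).

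Trim46, the member without a test, averaged 1.73 ± 0.343 CPM with LPS and IFNg and 2.09 ± 0.200 CPM with LPS at 18 h, against 0.581 ± 0.104 CPM in unstimulated cells (SD, n = 3 each), and overlaps Krtcap2 on the opposite strand.

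Genes around the family moved as follows. The lists were chosen with earlier results of these data known, so their counts are descriptions. Of 16 interferon response genes, 16 were called higher with LPS and IFNg and 16 with LPS at 18 h, with medians of 6.72 and 6.40. At 1 h 14 and 8 were called higher, with medians of 2.24 and 0.63. Over all tested genes 36.1% and 31.8% were called higher at 18 h, and 14.7% and 10.8% at 1 h. With IL-4 at 18 h 13 were lower and 1 higher, where 20.1% and 19% of all tested genes were. The values of single genes are again log2 fold changes. Irf7, the factor that amplifies type I interferon, changed by 6.65 and 6.51 at 18 h, and by 1.29 with LPS and IFNg at 1 h, where LPS alone was not called (0.23). Irf1, which is induced by IFNg directly, changed by 5.74 and 2.34 at 18 h and by 6.17 and 4.01 at 1 h.

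Of 22 genes of the sensing pathways on which TRIM proteins act, 18 were higher and 1 lower with LPS and IFNg at 18 h, and 18 and 1 with LPS. At 1 h these were 15 and 3 with LPS and IFNg, and 10 and 2 with LPS. Over all tested genes 36.1% and 31.8% were called higher at 18 h with LPS and IFNg and with LPS, and 14.7% and 10.8% at 1 h. Ddx58, which encodes RIG-I, the substrate of Trim25, rose by 2.95 and 3.49 at 18 h, and Ifih1, which encodes MDA5, the substrate of Trim65, by 3.71 and 3.20. Tripartite genes outside the TRIM naming were also measured. Pml, the organiser of nuclear bodies, rose by 2.52 and 2.20 at 18 h and by 1.37 with LPS and IFNg at 1 h, and Mefv, which encodes pyrin, by 4.07 and 4.13 at 18 h and 2.07 and 2.16 at 1 h.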

How the data were processed

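Each of the 24 deposited files gives unnormalized counts of reads for Ensembl gene identifiers in 1 library. STAR, featureCounts, DESeq2, deepTools and GRCm38 are named in the submitters' processing notes, and a stranded mRNA kit in the labels' protocols. The annotation, the strand setting of the counting and the treatment of reads with several alignments are not given in the sources used here, so values of overlapping or near-identical genes are uncertain. Of 43629 identifiers 42548 matched GENCODE M21.

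Genes were kept with filterByExpr (minimum count 10), which left 12765. The model used TMM scaling and was fitted over all 8 groups with edgeR 4.0.16 in R 4.3.3 (quasi-likelihood, two-sided, Benjamini-Hochberg). The 9 group comparisons and 3 interaction contrasts were recomputed with RLE or library-size scaling, no filter, DESeq2 1.42.0, the compared groups alone, a replicate block and libraries left out. The fit was tested on simulated data. Any member could be named, and members and lists were chosen with earlier results of these data known. Depth, from 4181890 to 8122945 counts, limits the precision of low genes.

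The labels do not say that a replicate number marks a shared culture. Deviations of same-numbered libraries from their group means were correlated. Values were above 0.1 in every pair for IL-4 against unstimulated cells at 1 h (0.178, 0.359 and 0.251). The same held for LPS with IFNg against LPS at 1 h (0.125, 0.123 and 0.199). For LPS against unstimulated cells at 1 h they were 0.044, 0.290 and 0.184. Libraries of different numbers were not compared, so these values do not settle whether the numbers mark pairs. Fold changes and p-values above ignore the replicate number unless a block is named.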

Additional observations from a re-analysis of the deposited data

Results flagged for a closer look

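The response to each stimulus was tested for a difference between the times, as the change at 18 h minus the change at 1 h. It differed for 33 members with LPS and IFNg, for 31 with LPS and for 11 with IL-4 (edgeR interaction contrast, adjusted p below 0.05). Such calls were frequent over all tested genes. With LPS and IFNg 31.8% were more positive and 32.2% more negative, with LPS 27% and 27.2%, and with IL-4 10.1% and 11.4%. Some members were called in opposite directions at 18 h and at 1 h. Trim36 was lower at 18 h and higher at 1 h with both LPS stimuli, and the reverse with IL-4, with differences of −1.48 for LPS with IFNg, −3.14 for LPS and 1.35 for IL-4 on the log2 scale. Trim8 was higher at 18 h and lower at 1 h with all 3 stimuli, with differences of 1.89, 1.38 and 0.94 for LPS with IFNg, LPS and IL-4, but with scaling by library size alone its change with LPS and IFNg at 18 h was −0.29.

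Trim39, a ligase that stabilises the apoptosis regulator MOAP-1, was lower at 1 h, and higher at 18 h, with differences of 1.60 for LPS with IFNg and 1.21 for LPS, though with LPS at 18 h its change was −0.01 with scaling by library size alone. With LPS alone Trim21, Trim25 and Trim41 were higher at 18 h and lower at 1 h, with differences of 2.60, 1.70 and 1.12. The calls of Trim21 and Trim25 at 1 h were lost without single libraries. Groups of 3 libraries were not tested for single outlying libraries.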

How the results depend on the processing

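Of 7103 recomputed member values, 6818 kept their call or stayed without one, and the sign of those without a call was not compared. With the sign kept, 95 gained a call and 179 lost one. The other 11 reversed, meaning that the sign changed and a call was present before, after or both. All 11 reversals came with scaling by library size alone: with LPS and IFNg at 18 h Trim13 (−0.046), Trim23 (−0.37), Trim24 (−0.51), Trim3 (−0.10), Trim33 (−0.30), Trim65 (−0.30) and Trim8 (−0.29), with LPS at 18 h Trim11 (−0.28), Trim33 (−0.40) and Trim39 (−0.0088), and with LPS and IFNg at 1 h Trim26 (−0.051). That scaling also moved counts of members called: lower became 17 with LPS and IFNg and 17 with LPS at 18 h, 16 with LPS and IFNg and 21 with LPS at 1 h, 8 for LPS with IFNg over LPS at 18 h, and 11 for the difference in the IL-4 response between times. Higher became 9 with LPS and IFNg at 1 h, and 5 for unstimulated cells at 18 h over 1 h. Calls over all genes moved in the same directions. With LPS and IFNg at 18 h 7617 of 12765 genes were lower under that scaling, against 4613 with TMM scaling. Without replicate 3 of the IL-4 and unstimulated groups at 18 h, higher with IL-4 was 1, and leaving out single libraries gave 1 to 2. The cause was not tested.

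With single libraries left out, LPS and IFNg at 18 h gave 22 to 23 members higher and 9 to 10 lower, LPS 20 to 22 and 8 to 10 (20 and 10 without replicate 2, which stood apart). At 1 h these were 10 to 13 and 8 to 10, and 2 to 3 and 9 to 12. The replicate block moved no count of members called by over 1.5 times. It gave 21 members higher with LPS at 18 h, against 20 without it. In the comparisons where every same-numbered pair correlated above 0.1, it changed no call other than that of Trim27. Membership by the expression filter alone would hold 41 genes.

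Depth limits low members such as Trim6, Trim29, Trim30b, Trim30c and Trim46, whose values rest on few counts in unstimulated cells.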
